A study of Nothobranchius furzeri with 15 samples.

Results

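A gene can give rise to more than 1 circular RNA, and the circRNAs described here are those that share their host gene with at least 1 other circle and have both ends in annotated exons. Members were taken from the authors' deposited position table by 2 criteria: both ends marked as exonic, and an annotated host that appears in 2 or more rows. The rule kept 593 of 1810 circRNAs (32.8%), from 267 host genes. For comparison, 871 further circRNAs with exonic ends had a host with a single circle. Another 55 circles of the member hosts had an end outside annotated exons: they are not members, but their reads count toward their host.

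A circRNA forms when the splice donor at the end of an exon is joined back to the acceptor of the same or an upstream exon, which closes the exons between them into a loop. Where several donors or acceptors of a gene can be used for back-splicing, the gene yields alternative circles, which may share a donor, share an acceptor, overlap or lie apart. In mammals and flies circRNAs are abundant in neural tissue, and their lack of free ends makes them long-lived.

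The study sequenced ribosome-depleted total RNA of the African turquoise killifish, Nothobranchius furzeri, a fish with a very short life span. All fish were of strain GRZ-AD, with no transgene or treatment named in the labels. Brain was sampled at 3.5, 8.5 and 14 weeks of age with 3 libraries at each age, and muscle at the same 3 ages with 2 libraries each, which gives 15 libraries. The deposited comparisons call these ages young, adult and old. Whether each library comes from its own fish is not said in the labels, and a p-value here therefore speaks to the scatter among libraries, part of which may be technical. Whole pieces of tissue were sequenced, so fewer cells of a type and less RNA per cell cannot be told apart. Of 30 brain marker genes, 21 were present among the hosts and their summed linear counts per 1000000 came to 39644 to 52540 in brain and 72.8 to 444 in muscle. Of 28 muscle marker genes, 12 were present, with 92512 to 110709 counts per 1000000 in muscle. In brain their sum was 8941 and 7067 in replicates 2 and 3 at 3.5 weeks and 1287 to 1963 in the other 7 libraries, and the part of this in the brain age comparisons and in the few brain reads of muscle circles was not tested. None of 7 blood and immune markers was a host, so blood could not be followed.

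The deposited tables give, for each circRNA, a count of circular reads and a count of linear reads at the same position. How a linear read was assigned was not given in the sources used here. Libraries held 1343 to 4400 circular and 76515 to 135698 linear reads over all circRNAs. Members took 12147 of 42161 circular reads, 7758 in brain and 4389 in muscle. Of the 593 members, 559 had at least 1 read and 34 had 0 reads in every library. Reads were seen in both tissues for 234 members, in brain alone for 285 and in muscle alone for 40. For the 871 exonic circles of single-circle hosts the counts were 375, 364 and 75 in the same order. These counts were not corrected for depth, and brain had 9 libraries against 6 in muscle. A detected member had a median of 10 reads over all 15 libraries, as did a detected circle of a single-circle host, so most single circles carry a wide counting error. The largest count of any member in any library was 93. Reads were concentrated: the 10 highest hosts held 43.4% of those in muscle against 23.7% in brain.

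The distances spanned on the genome are given as a description, with no test. For members the median distance from start to end was 7025 bp, with quartiles of 2773 and 17405 bp, against 3802 bp with quartiles of 1469.5 and 8783.5 bp for circles of single-circle hosts. Median linear reads at their positions were 459 for members and 370 for circles of single-circle hosts. The shares with at least 1 read were 94.3% and 93.5%.

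Most member hosts had few circles: 162 hosts had 2 members, 41 had 3, 15 had 4, 5 had 5, 1 had 6 and 2 had 7, and the remaining 41 had 1 member beside non-exonic circles. The 226 hosts with at least 2 members gave 482 pairs of circles. Circles of a host lay apart in 201 pairs (41.7%). They shared their start coordinate in 106 pairs (22.0%) and their end coordinate in 92 (19.1%). A further 60 pairs (12.4%) overlapped in part, and in 23 pairs (4.77%) the shorter circle lay inside the longer without a common end. By the strand given in the deposited table, 113 of the pairs with a common end shared the acceptor side and 85 the donor side. At least 1 common end was present in 130 of the 226 hosts (57.5%), involving 310 members, whereas 69 hosts had only circles that lay apart.

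Pairs with a common end usually differed widely at the other end, with a median distance of 10588 bp. In 15 of these pairs the other end differed by at most 100 bp, and in 10 by at most 12 bp. Alternative circles were often read side by side: in 385 of the 482 pairs, at least 1 library held reads of both circles. This was so for 147 of the 201 pairs lying apart, 91 of the 106 with a shared start and 74 of the 92 with a shared end.

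**Figure D1:**
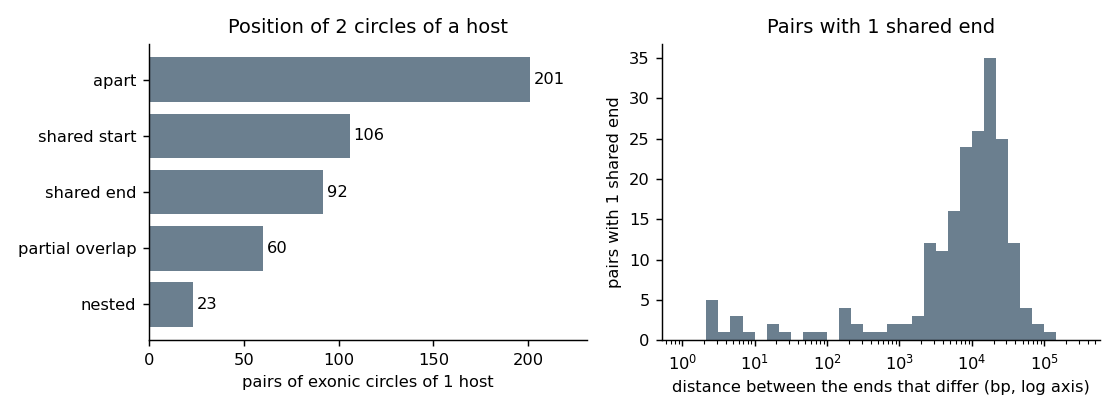
Left, number of pairs of exonic circles of the same host by their relative position, 482 pairs in all; circles lie apart in 201 pairs and share a start or an end in 106 and 92. Right, number of pairs with a common end against the distance between the ends that differ (bp, log axis); most lie near the median of 10588 bp, and a small separate set lies at or below 12 bp.

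Among the pairs that differed by a few bases, the one with the most reads of both circles was that of rmc1, which encodes a subunit of a guanine nucleotide exchange complex of late endosomes. The circles rmc1.1 (chromosome 10, 359650 to 363629, minus strand) and rmc1.2 (359655 to 363629) share the acceptor side and differ by 5 bp at the donor side. Circles are named here by the host and a number in table order. In brain, rmc1.1 had 85 reads and rmc1.2 had 64, so that rmc1.2 made up 43.0% of the pair (exact binomial 95% interval 34.9 to 51.3). In muscle they had 83 and 86 reads, or 50.9% for rmc1.2 (43.1 to 58.6). Both circles were read in 13 of the 15 libraries, and the 2 intervals overlap. Intervals given here cover counting error only, since PCR copies cannot be told from separate molecules.

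Several other close pairs were uneven. The 2 circles of enpp6, which encodes a choline phosphodiesterase of oligodendrocytes, differ by 5 bp at the acceptor side (chromosome 2, 69361184 to 69363007 and 69361184 to 69363012, minus strand). In brain enpp6.2 took 231 of 243 reads, or 95.1% (91.5 to 97.4). For cap2, which encodes an actin-regulating cyclase-associated protein, the circles differ by 92 bp (chromosome 12, 15085191 or 15085283 to 15089623, minus strand), and cap2.2 took 214 of 236 reads in muscle, or 90.7% (86.2 to 94.1). The circles of mtmr3, a phosphoinositide phosphatase gene, differ by 4 bp. They had 0 reads in brain, and mtmr3.2 took 53 of 64 reads in muscle, or 82.8% (71.3 to 91.1). For med17, a Mediator subunit gene, circles 5 bp apart had 6 and 27 reads in brain and 2 and 22 in muscle, so the same circle led in both tissues. Of the 2 circles of gapvd1, a gene of endosome trafficking, which differ by 3 bp, gapvd1.2 had 27.8% of 18 reads in brain (9.69 to 53.5) and 68.2% of 22 reads in muscle (45.1 to 86.1), with overlapping intervals. A few pairs with fewer reads were closer to even: rims2.2 and rims2.3, 3 bp apart, had 12 and 9 reads in brain, and srbd1.1 and srbd1.2, 28 bp apart, had 11 and 13. The circles of xpo1b, 9 bp apart, had 9 and 7 reads in muscle but 0 and 8 in brain. Where ends lie 3 to 5 bp apart, whether the junction positions reflect separate splice sites was not tested, because no genome sequence was used here.

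In hosts with 10 or more circular reads, a leading circle usually held most of the reads without excluding the others. In brain 208 hosts passed this minimum and the leading circle held a median of 66.2% of host reads, with quartiles of 55.7% and 80.0%. In muscle 87 hosts passed and the median was 72.7%, with quartiles of 58.9% and 89.6%. The leading circle held 90% or more in 20 brain hosts and 22 muscle hosts, and all of the reads in 2 and 12. It held under 60% in 72 brain hosts and 23 muscle hosts. Hosts with 2 circles had a median lead of 69.6% in brain and 79.3% in muscle, and hosts with 3 or more circles 53.5% and 65.2%. With 2 circles, as in 148 of the 208 brain hosts and 61 of the 87 muscle hosts, the lead is at least 50% by definition. The leader is picked from the same reads, which raises its share at low counts. Intervals of leading shares do not allow for that choice. In hosts with 50 or more reads the medians were 80% in brain (45 hosts) and 85.2% in muscle (26 hosts).

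**Figure D2:**
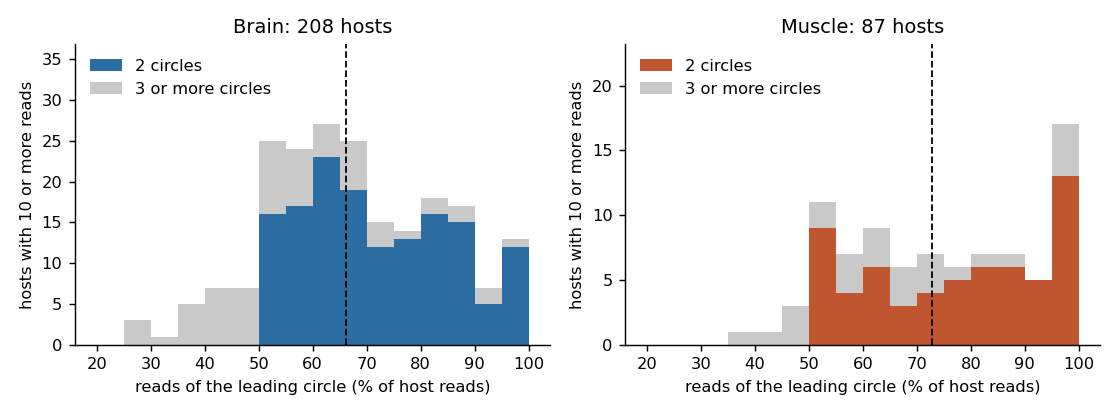
Distribution of the share of host circular reads held by the leading circle (%), in brain (208 hosts) and muscle (87 hosts) with 10 or more reads; coloured bars are hosts with 2 circles and grey bars, stacked on them, hosts with 3 or more. Dashed lines are the medians, 66.2% and 72.7%; in muscle the highest bar is at the right, where 12 hosts had all reads in the same circle.

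Leading circles were looked at by size and by position. Of 202 brain hosts with a single leader, the leader was the shortest circle of the host in 109 and the longest in 72. In muscle the figures were 32 and 43 of 84. Among hosts with 2 circles, the shorter circle led in 89 of 146 in brain and in 25 of 60 in muscle. The leader also had the highest circular share of its host, that is circular reads over circular plus linear reads at the same position, in 185 of 202 brain and 77 of 84 muscle hosts. Circular reads both pick the leader and enter this share, so these counts follow in large part from the choice of the leader. It lay at the position with the most linear reads in 104 of 202 and 37 of 84. The linear counts of circles of a host are not independent, because a linear read may have been counted at more than 1 of them.

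The hosts with the most circles had reads spread over many of them, nearly all in brain. The gene si:ch211-186j3.6 had 7 exonic circles on chromosome 11 between 49754643 and 50143863, with 7, 8, 16, 5, 19, 13 and 6 reads in brain and 0 in muscle. Its leading circle, the fifth, held 25.7% of 74 reads (16.2 to 37.2). The circles of grm8b, a metabotropic glutamate receptor gene, use 2 start coordinates and 4 end coordinates on chromosome 9, in 6 combinations that had 9, 6, 5, 8, 18 and 15 reads in brain and 0 in muscle. For grin2da, which encodes an NMDA receptor subunit, 5 circles had 6, 34, 50, 5 and 15 reads in brain, and grin2da.3 held 45.5% (35.9 to 55.2). In adgrb2, an adhesion receptor gene of neurons, 5 circles had 9, 7, 28, 8 and 12 reads in brain. In nbeab, whose product neurobeachin traffics synaptic receptors, they had 9, 11, 8, 8 and 22. Linear reads at each circle of these 5 hosts were also few in muscle, from 0 to 8, where grm8b for instance had 258 to 359 in brain. Circle use in muscle could therefore not be judged for them. The other host with 7 circles, LOC107380514, had 3 reads in brain and 5 in muscle.

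In several hosts with many reads a single circle dominated. This was not so in all of them: the leading circle of rmc1 held 55.6% of 153 reads in brain and 50.3% of 171 in muscle, that of nisch 47.6% of 145 in brain, and in muscle LOC107394000.1 and LOC107394000.2 had 90 reads each of 190. The circle nsun4.1, from a gene for a mitochondrial RNA methyltransferase (chromosome 5, 47974111 to 47974486, minus strand), had 26, 20 and 41 reads in brain at 3.5 weeks, 25, 17 and 59 at 8.5 weeks and 37, 58 and 32 at 14 weeks. In muscle it had 8 and 31, then 93 and 69, then 30 and 33. It was read in every library, and brain and muscle counts overlap. Per scaled linear read it was higher in muscle (log2 -1.71, SE 0.299, adjusted p = 1.66e-07, edgeR), a call lost with circular TMM (log2 -0.11) and with linear totals (log2 -0.20). It held 99.1% of 318 host reads in brain and all 264 in muscle, and its circular share was 64.2% (59.7 to 68.4) in brain and 60.1% (55.4 to 64.7) in muscle. The circle vps35.1, from a gene of the retromer, which sorts endosomal cargo, had 111 and 68 reads and led with 91.0% and 88.3%. LOC107390307.1 led with 98.0% of 304 reads in brain and all 70 in muscle. In brain, nptn.1, from a gene for a synaptic adhesion protein, held 97.7% of 133 reads. In muscle, mylk4a.1, from a myosin light chain kinase gene, held 98.1% of 212 reads, filip1l.2 held 95.7% of 232 and myot.2, from the gene of the Z-disc protein myotilin, held 95.3% of 148.

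The leading circle was compared between tissues in the 55 hosts with 10 or more reads in each. The same circle led in 37 of them (67.3%) and a different circle in 18. Leaders of a host with 2 circles will often match even if unrelated, and the rate of such matches was not worked out. With 20 or more reads in each tissue, the same circle led in 21 of 26 hosts (80.8%), and the 5 others were rmc1, nisch, adgrl2, rilpl1 and jmjd1c. In 2 of the 18 hosts with different leaders, rilpl1 and adgrl2, the intervals of both leading shares lay above 50%. Use of the leading circle was then tested across all libraries, as the ratio of its reads to those of the other circles of the host, with edgeR's quasi-likelihood test and Benjamini-Hochberg adjustment over 130 hosts of the whole table. Of 125 member hosts tested, 2 passed at an adjusted p under 0.05, against 2.31% of all hosts tested, and 9 had an unadjusted p under 0.05. The 2 were again rilpl1 and adgrl2. This test averages the tissue difference over the 3 ages. Every SE printed here is the log2 difference divided by the square root of the F statistic, not a separate estimate. An SE over 10 on the log2 scale, called not usable, therefore marks an F near 0. Where a tissue had too few reads of a host at some age, the difference had no usable standard error. That was so for 99 of the 125 hosts, none of which passed, so the test does not judge them. With tissue and age as additive terms, a setting chosen after seeing the data, 83 of the 125 hosts had a usable standard error. The same 2 hosts passed, 1 in each direction, against 1.54% of all hosts higher in brain and 0.769% higher in muscle, and 15 had an unadjusted p under 0.05.

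The host rilpl1 encodes a Rab-binding protein of lysosomes and the primary cilium. Its 2 circles share the coordinate 6269829 on chromosome 8, the acceptor side on the minus strand: rilpl1.1 runs from 6268030 and rilpl1.2 from 6269062. In brain, rilpl1.1 had 0, 0 and 1 reads at 3.5 weeks and 0 in the 6 libraries of later ages, whereas in muscle it had 17 and 13, then 56 and 44, then 16 and 15. The shorter rilpl1.2 had 4, 7 and 2, then 2, 0 and 6, then 3, 4 and 5 reads in brain, and 1 and 2, then 5 and 0, then 0 and 3 in muscle. All 6 muscle libraries lay above all 9 brain libraries for rilpl1.1, while the ranges of rilpl1.2 overlap. Thus rilpl1.2 held 97.1% of 34 reads in brain (84.7 to 99.9) and rilpl1.1 held 93.6% of 172 in muscle (88.8 to 96.8).

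The leading circle of muscle was the same at each age, with 90.9% of 33 reads at 3.5 weeks, 95.2% of 105 at 8.5 weeks and 91.2% of 34 at 14 weeks. The ratio of rilpl1.1 to rilpl1.2 was lower in brain by a log2 difference of -7.99 (SE 1.25, adjusted p = 3.01e-08, edgeR). It passed in all 22 alternatives tried, with log2 values of -9.26 to -7.56. Linear reads at the 2 positions were 256 and 494 in brain and 326 and 433 in muscle. The circular share of rilpl1.1 was 0.389% (0.010 to 2.15) in brain and 33.1% (28.9 to 37.4) in muscle, and that of rilpl1.2 was 6.26% (4.35 to 8.68) and 2.48% (1.24 to 4.39).

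The host adgrl2 encodes a latrophilin, an adhesion receptor that spans synapses. On the plus strand of chromosome 17, adgrl2.1 (15295077 to 15315520), adgrl2.2 and adgrl2.3 share their start, and adgrl2.4 (15371425 to 15380606) lies apart from them. In brain adgrl2.1 had 11, 24 and 16 reads at 3.5 weeks, 16, 10 and 29 at 8.5 weeks and 20, 22 and 8 at 14 weeks, and in muscle 3 reads in 1 library at 3.5 weeks and 0 in the other 5. For adgrl2.4 the counts were 0, 3 and 0, then 0, 0 and 3, then 2, 9 and 1 in brain, and 0 and 4, then 2 and 10, then 5 and 0 in muscle. The groups did not overlap for adgrl2.1 and did for adgrl2.4. The leading circle was adgrl2.1 with 80% of 195 reads in brain (73.7 to 85.4) and adgrl2.4 with 75% of 28 reads in muscle (55.1 to 89.3).

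The use of adgrl2.1 against the other circles of its host was higher in brain by 5.61 on the log2 scale (SE 1.27, adjusted p = 6.62e-04, edgeR). The call was lost without muscle replicate 3 at 3.5 weeks (log2 3.65, adjusted p = 1.00) and without muscle replicate 1 at 14 weeks (log2 3.97, adjusted p = 1.00), which each held 4 or 5 of the 21 muscle reads of adgrl2.4. It was kept in the other 20 of 22 alternatives. With tissue and age as additive terms the log2 difference was 5.04 (SE 1.12, adjusted p = 4.29e-04, edgeR), and it passed with each of the 15 libraries left out in turn (log2 4.46 to 7.29, highest adjusted p = 0.0115). Linear reads of the host were far fewer in muscle, with 39 at adgrl2.1 and 32 at adgrl2.4, against 699 and 414 in brain.

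**Figure D3:**
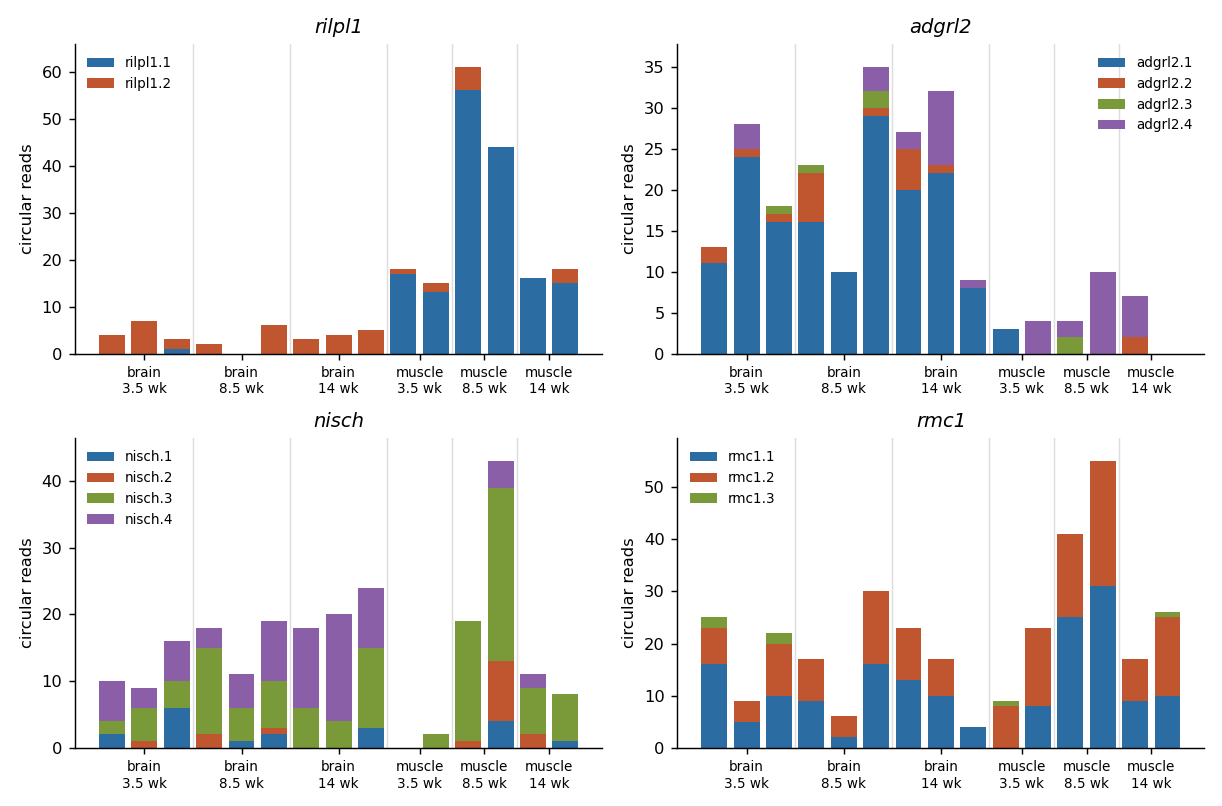
Circular reads of each circle (colours) in each of the 15 libraries, stacked by host, for rilpl1, adgrl2, nisch and rmc1; libraries are ordered by tissue and age. In rilpl1 the muscle bars are almost all rilpl1.1, which has 1 read in all of brain; in adgrl2 the brain bars are mostly adgrl2.1 and the muscle bars mostly adgrl2.4, from 28 muscle reads.

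Among the other hosts with different leaders, nr3c1, tgs1, kiaa1109, pc, kif13a and gapvd1 had no usable standard error in the test averaged over ages. With additive terms their adjusted p lay between 0.320 (kiaa1109) and 1.00 (kif13a). The hosts nisch, jag2b, slc43a1b and rmc1 could be tested and missed the threshold. In nisch, which encodes the integrin-binding protein nischarin, nisch.3 (chromosome 14, 40545749 to 40562524) and nisch.4 (40547823 to 40562524) share their donor side on the plus strand. In brain nisch.4 led with 69 of 145 reads (47.6%, 39.2 to 56.0) over 58 of nisch.3, and in muscle nisch.3 led with 60 of 83 (72.3%, 61.4 to 81.6) over 6 of nisch.4. The log2 difference of nisch.3 against the rest was -2.96 (SE 1.24), with an unadjusted p of 0.0174 and an adjusted p of 0.350. In jag2b, a Notch ligand gene whose 3 circles share the coordinate 47944367 on chromosome 1, the longest had 4 reads in brain and 44 in muscle, and the shortest 12 and 3 (log2 difference of the longest against the rest -4.68, SE 1.67, adjusted p = 0.169). In slc43a1b, an amino acid transporter gene, slc43a1b.2 had 93.8% of 16 reads in brain (69.8 to 99.8) and slc43a1b.1 had 54.5% of 77 in muscle (42.8 to 65.9). In nr3c1, the glucocorticoid receptor gene, nr3c1.1 had 13 of 14 reads in brain and nr3c1.2 had 12 of 23 in muscle. The usage of slc43a1b also missed the threshold (log2 difference of slc43a1b.2 against slc43a1b.1 3.44, SE 1.53, adjusted p = 0.366, edgeR). With additive terms nisch, jag2b and slc43a1b each had an adjusted p of 0.253 (log2 -2.34, -3.60 and 3.45, in the same order).

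A value over all hosts asked how uneven circle use was in each library: the probability that 2 circular reads drawn from the same host came from the same circle, averaged over hosts with 2 or more reads. The brain libraries had 72.2, 74.4 and 74.3% at 3.5 weeks, then 68.9, 70.7 and 69.9%, then 69.8, 74.2 and 76.2%. The muscle libraries had 88.4 and 88.9% at 3.5 weeks, then 76.4 and 82.2%, then 78.8 and 76.6%. Every muscle library lay above every brain library. The means were 72.3% ± 2.58 (SD, n = 9) in brain and 81.9% ± 5.66 (SD, n = 6) in muscle, a difference of -9.59 percentage points (two-sided exact permutation test, p = 0.0002, the smallest this design can give; adjusted p = 0.0018 over 9 tests).

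The hosts that entered were not the same, 126 to 177 per brain library and 49 to 112 per muscle library. Restricted to 145 hosts with 2 or more reads in at least 1 library of each tissue, a setting chosen after seeing the data, the difference was -7.33 points (two-sided exact permutation test, p = 0.00579, adjusted p = 0.0521). The groups then overlapped, with brain up to 80.3% and muscle from 76.1%. Of the 145 hosts, 74 to 103 entered per brain library and 42 to 100 per muscle library, so the hosts counted still differed. Across ages the slope in muscle was -1.03 points per week (two-sided exact permutation test, p = 0.0667, adjusted p = 0.200) and in brain -0.0101 points per week (p = 0.968). The muscle libraries allow only 90 arrangements of the age labels, against 1680 in brain. A single muscle slope, here or below, could thus hardly pass after adjustment. Fewer hosts entered at 3.5 weeks in muscle (49 and 64) than in the later muscle libraries (80 to 112), and the part of that number in the muscle slope was not tested beyond the 20 hosts read in every muscle library, in which the slope was -1.10 (exact permutation p = 0.100, adjusted p = 0.300).

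**Figure D4:**
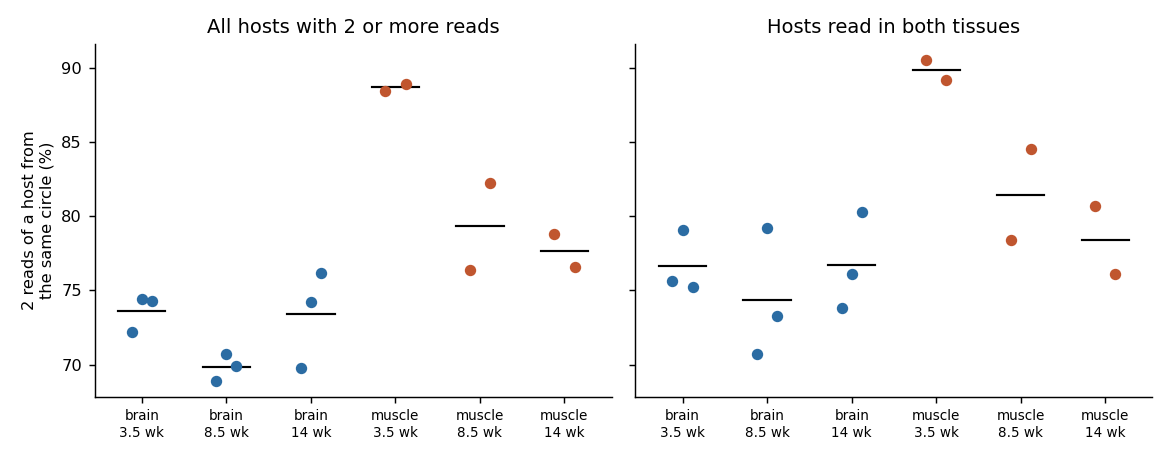
Probability (%) that 2 circular reads of a host come from the same circle, 1 point per library (blue, brain; orange, muscle), with the group mean as a bar; the vertical axis does not start at 0. Left, all hosts with 2 or more reads, where the 6 muscle libraries lie above the 9 brain libraries; right, the 145 hosts read in both tissues, where the lowest muscle library (76.1%) lies below the highest brain library (80.3%).

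The members' share of all circular reads did not pass between tissues after adjustment. They held 27.6% ± 1.95 (SD, n = 9) of circular reads in brain and 29.9% ± 2.13 (SD, n = 6) in muscle (two-sided exact permutation test, p = 0.0490, adjusted p = 0.200). Their slopes over age were 0.0508 points per week in brain (exact permutation p = 0.752) and 0.233 in muscle (p = 0.289). The circular share over all members was 2.51% ± 0.545 (SD, n = 9) in brain and 2.17% ± 0.884 (SD, n = 6) in muscle (exact permutation p = 0.364). Muscle at 3.5 weeks had 1.29% ± 0.0631, muscle at 8.5 weeks 3.22% ± 0.0150 and the oldest muscle 1.99% ± 0.314 (SD, n = 2 in each). Both 8.5-week libraries lay above the other 4, and the slope over age was 0.0614 points per week (exact permutation p = 0.511). A slope does not measure a peak at the middle age. Over all circRNAs, circular reads were 1343 and 1645, then 4269 and 3316, then 1830 and 1947. Linear reads were 96191 and 116813, then 122098 and 100841, then 97187 and 76515. Whether members differed from all circRNAs in this was not tested. In brain the members' circular share at the same 3 ages was 2.08% ± 0.0357, 2.93% ± 0.601 and 2.51% ± 0.524 (SD, n = 3 in each), with a slope of 0.0397 (exact permutation p = 0.376).

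Single circles were compared between brain and muscle with circular reads scaled to the linear reads (TMM), for the 309 members with 10 or more circular reads. Of these, 68 passed at an adjusted p under 0.05 (edgeR quasi-likelihood test), 20 higher in brain and 48 higher in muscle. Over all circRNAs tested, 23.1% passed, 8.37% higher in brain and 14.7% higher in muscle, so the members' 22.0% was close to the background. For 59 of the 309 the difference averaged over ages had no usable standard error. None of those passed, and the test does not judge them. With tissue and age as additive terms, chosen after seeing the data, all 309 had one and 112 members passed, 41 higher in brain and 71 in muscle, where 38.1% of all circRNAs passed, 13.7% and 24.3% by direction. The split depends on the scaling: with TMM factors from the circular reads 154 members passed, 120 higher in brain and 34 in muscle, and with linear totals alone 142 passed, 108 and 34. Of all 896 circRNAs tested, 420 passed with circular TMM, 331 higher in brain and 89 in muscle. With linear totals 387 passed, 297 and 90. The median log2 difference over all circRNAs tested was 1.16 with linear TMM, 2.08 with circular TMM, 2.00 with linear totals and 0.26 with additive terms. The same 20 members higher in brain and 34 members higher in muscle passed under all 4 scalings tried, and 0 passed in opposite directions. How many of all circRNAs passed under all 4 was not counted. Circles with 0 reads in a tissue have a fitted difference that rests on the prior count, so reads are given for them instead.

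Of the circles higher in brain, nptn.1 and enpp6.2 are given by library. The circle nptn.1 (chromosome 11, 1561858 to 1573212) had 21, 6 and 11, then 16, 7 and 15, then 26, 24 and 4 reads in brain by age, and 0 in every muscle library (adjusted p = 4.42e-06). The limit that 0 reads allows is 3 reads over the muscle libraries. For enpp6.2 the brain reads were 4, 12 and 24, then 49, 16 and 30, then 36, 38 and 22, against 2 in all of muscle (log2 5.63, SE 0.936, adjusted p = 3.40e-08). Both groups were separate in each case, and enpp6.2 ranged from 4 to 49 reads among brain libraries. Other circles called higher in brain were adgrl2.1 (156 reads against 3, log2 5.04, SE 1.03, adjusted p = 1.11e-05), LOC107378159.3 (95 against 0), LOC107384142.2 (79 against 0) and cnksr2.2 (66 against 0), from a gene for a postsynaptic scaffold. So were astn1.1 (53 against 0), from a gene of neuronal migration, grin2da.3 (50 against 0), LOC107377647.3 (46 against 0) and LOC107385727.2 (41 against 0). Linear reads at the positions of the circles named here were also far fewer in muscle. They ran there from 1 (grin2da.3 and LOC107377647.3) to 56 (LOC107385727.2), against 453, 853 and 2928 in brain at the same positions.

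Of the circles higher in muscle, mylk4a.1, rilpl1.1 and myot.2 had the smallest p-values. The circle myot.2 (chromosome 2, 67185386 to 67188819) had 0 reads in brain and 14 and 14, then 38 and 38, then 16 and 21 in muscle (adjusted p = 1.10e-40). For mylk4a.1 the muscle reads were 21 and 24, then 62 and 51, then 22 and 28, against 6 reads in 1 brain library, replicate 2 at 3.5 weeks, where muscle markers were highest in brain (log2 -7.93, SE 0.526, adjusted p = 4.45e-48). Muscle lay above brain in all libraries for both. The circle filip1l.2 had 71 and 44, then 43 and 20, then 26 and 18 reads in muscle and 0 to 8 in brain (log2 -5.19, SE 0.391, adjusted p = 1.24e-37), and rilpl1.1 had a log2 difference of -8.17 (SE 0.586, adjusted p = 3.02e-41).

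The circles of the sodium pump gene atp1a2a lie apart: atp1a2a.2 had 3 reads in brain and 120 in muscle and atp1a2a.1 had 0 and 33. The other circles named in muscle were cap2.2 (4 against 214 reads, log2 -6.96, SE 0.700, adjusted p = 2.58e-21), LOC107394000.1 (1 against 90), atp2a1.3 (0 against 102), from the gene of the sarcoplasmic calcium pump, neb.2 (0 against 43), from the nebulin gene, and ltbp1.2 (0 against 52), from a gene of the extracellular matrix. Calls of neb.2 and ltbp1.2 were lost without muscle replicate 3 at 3.5 weeks (adjusted p = 1.00), after which the remaining library of that age had 0 reads of them, and that of LOC107394000.1 was lost without replicate 1 of that age (adjusted p = 1.00).

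The circles were also grouped by what their hosts do, with lists chosen when earlier results of these data were known. Over all circRNAs tested, 8.37% passed higher in brain and 14.7% higher in muscle, and counts by list are to be read beside those shares. Of 24 tested circles from hosts for postsynaptic receptors and scaffolds, 6 were higher in brain and 0 in muscle, among them cnksr2.1, cnksr2.2, grin2da.2 and grin2da.3. Their list median was 3.28 on the log2 scale, where all circRNAs tested had 1.16. Of 28 circles from hosts of cell adhesion and axon guidance, 4 were higher in brain, nptn.1, adgrl2.1, tenm1.1 and astn1.1, and 1, adgrl2.4, higher in muscle, with a median of 3.06. Presynaptic hosts (8 tested, median 3.08) and hosts of the list of ion channels and transporters (6 tested, median 3.34) had 0 calls (edgeR). In each of these lists 2 circles had an unadjusted p under 0.05, all higher in brain. The latter list left out channel and transporter hosts with circles called higher in muscle. These were piezo1.1 (log2 -5.07, adjusted p = 7.50e-04, edgeR) and both circles of atp1a2a and of slc43a1b. The call of slc43a1b.2 was lost with circular TMM and with linear totals. Receptor channels such as grin2da were counted as postsynaptic, and scn4aa with the sarcomere. All members of the postsynaptic, adhesion, presynaptic and ion channel lists had 688, 1020, 203 and 111 reads in brain and 10, 81, 0 and 8 in muscle. Most had 0 reads in muscle, so these 4 medians rest largely on the prior count. Such circles reached the minimum of 10 reads through brain alone and could not be called higher in muscle. The direction of calls in these lists therefore follows in large part from the filter. The list of the sarcomere and of excitation-contraction coupling had 24 reads in brain and 912 in muscle. Its median of -5.30 and the direction of its calls are limited in the same way. Of its 15 tested circles, 10 were higher in muscle and 0 in brain. Besides those named above they were scn4aa.1 and scn4aa.3, from a muscle sodium channel gene, with 30 reads each in muscle and 0 in brain, ttn.2.3 (14 reads in muscle and 0 in brain), from a titin gene, asph.1 and mef2ca.2. The calls of adgrl2.4, asph.1, mef2ca.2 and ank2b.2 were lost with circular TMM and with linear totals, while the other circles named by list passed under all 4 scalings. Other alternatives ended some of these calls: grin2da.2 was kept in 14 of 24, tenm1.1 in 17, cnksr2.1 in 18 and grin2da.3 in 22. That of ttn.2.3 was lost without muscle replicate 1 at 3.5 weeks (adjusted p = 1.00).

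Smaller lists gave few calls, too few to set apart from the 14.7% of all circRNAs tested that passed higher in muscle. Of 6 tested circles from cytoskeleton and motor hosts, 2 were higher in muscle, tln2a.2 (0 and 19 reads) and ank2b.2 (2 and 15 reads). Of 3 from growth signalling hosts, 1 was higher in muscle, ghr.2 of a growth hormone receptor gene (0 and 26 reads). The list left out ghrb, another growth hormone receptor gene, and both of its circles were called higher in muscle. These were ghrb.1 (3 and 49 reads, log2 -5.38, adjusted p = 2.51e-10, edgeR) and ghrb.2 (2 and 25 reads, log2 -5.20, adjusted p = 1.39e-07, edgeR). The calls of tln2a.2 and ghr.2 were lost without muscle replicate 1 at 3.5 weeks (adjusted p = 1.00 in each). The chromatin list, which held smarca2 alone (2 tested, median -0.20), and the ubiquitin list of herc1 and usp54b (2 tested, median 0.34) gave 0 calls. Both also had 0 at an unadjusted p under 0.05 (edgeR), but neither chromatin circle had a usable standard error. Outside the list, jmjd1c.2 and jade2.2, from chromatin genes, were called higher in muscle, kept in 18 of 24 and 22 of 23 alternatives. Of 5 from hosts of well known mammalian circRNAs, 1 was higher in muscle, ank2b.2 again. No splicing factor from the list was a member host. With additive terms the circles higher in brain were 9 of 24 for postsynaptic, 7 of 28 for adhesion, 2 of 8 for presynaptic and 2 of 6 for ion channel hosts. Over all circRNAs tested, 13.7% passed higher in brain and 24.3% higher in muscle with these terms. The list circles higher in muscle were 14 of 15 for sarcomere, 3 of 6 for cytoskeleton and 1 of 28 for adhesion hosts. They were also 1 of 3 for growth signalling hosts and 2 of 5 for hosts of well known mammalian circRNAs. The limit set by the filter holds for these counts as well.

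Circular share was tested in the same way. Of the 309 members, 13 had a circular share that passed between tissues (edgeR, circular and linear reads as paired columns), all higher in muscle. Over all circRNAs tested 4.02% passed, 3.91% higher in muscle and 0.112% higher in brain, so the members' 4.21% was near the background. No usable standard error was had for 147 of the 309. With additive terms that number was 42 and 25 members passed, 24 higher in muscle and 1 in brain, where 8.71% of all circRNAs passed, 7.81% and 0.893% by direction. Calls of rilpl1.1 (log2 -6.00, SE 0.907, adjusted p = 1.74e-08), prkcaa.1 (-3.40, SE 0.641, adjusted p = 1.38e-05) and LOC107394000.2 (-3.17, SE 0.853, adjusted p = 0.00801) were kept in all 19 alternatives. The circle prkcaa.1, from a protein kinase C gene (chromosome 4, 47954726 to 47959240), had 3, 0 and 1, then 0, 0 and 7, then 3, 3 and 0 reads in brain and 7 and 9, then 25 and 13, then 4 and 13 in muscle. Its libraries overlap only at 4 to 7 reads, and its circular share was 2.80% (1.64 to 4.44) in brain and 24.0% (19.2 to 29.3) in muscle.

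The other 10 circles called in circular share were stk32c.1, jag2b.1, adgrl2.4, epha4b.3, LOC107394000.1, mtmr3.2, LOC107385030.2, jade2.2, nup50.2 and ltbp1.2. The share of jag2b.1, for instance, was 0.794% (0.217 to 2.02) in brain and 14.7% (10.9 to 19.2) in muscle. That of adgrl2.4 was 4.17% (2.49 to 6.51) in brain and 39.6% (26.5 to 54.0) in muscle. Without muscle replicate 3 at 3.5 weeks 5 circles passed in place of 13.

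Across ages in brain no member passed in abundance. Of 222 members tested 0 passed at 8.5 against 3.5 weeks, at 14 against 8.5 weeks and at 14 against 3.5 weeks (edgeR; 21, 7 and 18 had an unadjusted p under 0.05, and DESeq2 called 0 in each), where 0.156, 0 and 0.156% of all circRNAs tested passed. The circle with the smallest p at 8.5 against 3.5 weeks was enpp6.2, at 33.9 to 210.9 circular reads per 1000000 scaled linear reads at 3.5 weeks, 201.9 to 477.8 at 8.5 weeks and 241.7 to 276.6 at 14 weeks (log2 1.34, SE 0.419, adjusted p = 0.167, edgeR). At 14 against 3.5 weeks it was cnksr2.1, with 3, 0 and 0 reads, then 7, 5 and 6, then 14, 10 and 6 (log2 3.01, SE 0.925, adjusted p = 0.200, edgeR). The 14-week libraries did not overlap with the 3.5-week libraries in cnksr2.1, and the other circle of that host, cnksr2.2, had 2, 2 and 8, then 4, 12 and 12, then 9, 12 and 5. The circle kitlga.2, from a Kit ligand gene, had 0 reads at 3.5 weeks, then 2, 0 and 5, then 1, 13 and 4 (adjusted p = 0.200 at 14 against 3.5 weeks, edgeR).

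In muscle most members and most circRNAs tested had higher fitted levels after 3.5 weeks, and few of them passed. The median log2 difference at 8.5 against 3.5 weeks was 1.65 over members and 1.23 over all circRNAs tested. At 14 against 3.5 weeks these medians were 0.856 and 0.737. At 8.5 against 3.5 weeks 2 of 87 members passed, cap2.2 and atp2a1.3, both higher, against 1.37% of all circRNAs tested. Of the 87, 17 had an unadjusted p under 0.05 (edgeR), 16 of them higher. Over all circRNAs tested 52 did, 46 of them higher. DESeq2 called 9 members, and its calls over all circRNAs were not counted. The circle cap2.2 had 4 and 1 reads at 3.5 weeks, 72 and 57 at 8.5 weeks and 40 and 40 at 14 weeks, which as circular reads per 1000000 scaled linear reads is 51.8 and 9.8, then 513.7 and 510.5, then 387.5 and 496.5. The 3.5-week libraries lay below the other 4. The log2 difference of 8.5 against 3.5 weeks was 4.10 (SE 0.703, adjusted p = 0.0145) and that of 14 against 3.5 weeks 3.89 (SE 0.708, adjusted p = 0.0264, edgeR), where cap2.2 was the only one of 87 members that passed, against 0.342% of all circRNAs.

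For atp2a1.3 the counts were 2 and 1, then 50 and 21, then 13 and 15 reads, again lowest at 3.5 weeks (log2 3.91, SE 0.883, adjusted p = 0.0448 at 8.5 against 3.5 weeks, edgeR). The other circles of these hosts had fewer reads in the same libraries: cap2.1 had 0 and 0, then 7 and 7, then 3 and 5, and atp2a1.2 had 0 and 0, then 7 and 2, then 5 and 3. At 14 against 8.5 weeks 0 of 87 passed (edgeR and DESeq2; 1 had an unadjusted p under 0.05; 0% of all circRNAs). Of 12 sarcomere circles tested, 2 were higher at 8.5 than at 3.5 weeks, with a list median of 3.10 where all circRNAs had 1.23, and 1 at 14 against 3.5 weeks (median 2.32, all 0.74). Over all circRNAs tested, 1.37% and 0.342% passed higher in these comparisons.

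With 2 libraries a group these calls were lost without some single libraries, while the differences stayed about as large. The call of cap2.2 at 8.5 against 3.5 weeks was lost without muscle replicate 1 or 3 at 8.5 weeks or replicate 2 at 14 weeks (adjusted p = 0.286, 0.425 and 0.0741), with log2 values of 4.08 to 4.10. That of atp2a1.3 was lost without any of the 4 libraries of 8.5 and 14 weeks (log2 3.36, 4.29, 3.96 and 3.91, adjusted p = 0.419, 0.425, 0.124 and 0.155). The call of cap2.2 at 14 against 3.5 weeks was lost in the same way (log2 3.87, 3.88, 4.06 and 3.70, adjusted p = 0.236, 0.652, 0.0839 and 0.581). The count of 2 at 8.5 against 3.5 weeks became 12 without muscle replicate 3 at 3.5 weeks.

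**Figure D5:**
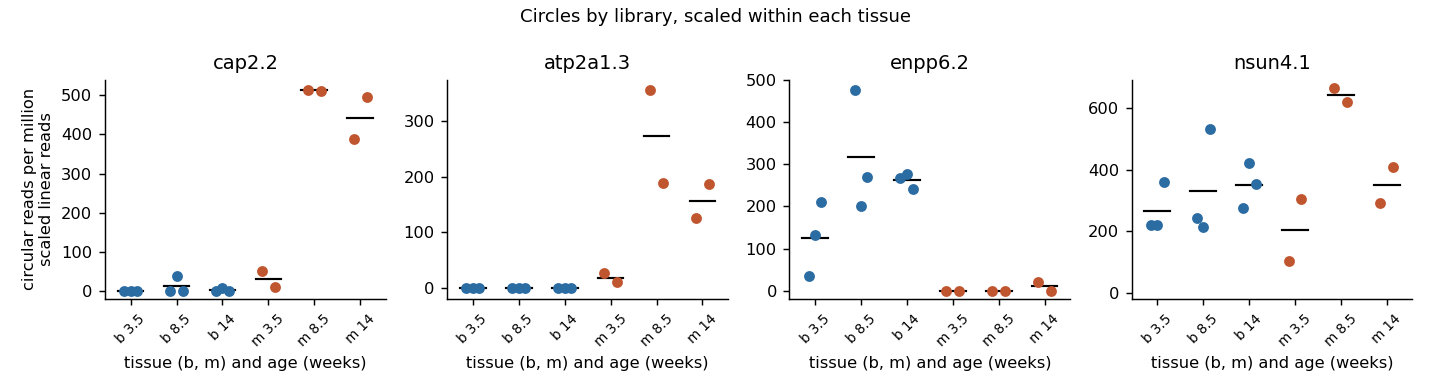
Circular reads per 1000000 scaled linear reads of cap2.2, atp2a1.3, enpp6.2 and nsun4.1, 1 point per library by tissue (b, brain; m, muscle) and age in weeks, with group means as bars; scaling was done within each tissue, so levels of brain and muscle are not comparable. In muscle cap2.2 stood at 51.8 and 9.8 at 3.5 weeks and at 387.5 to 513.7 at later ages, and atp2a1.3 showed the same order, while enpp6.2 varied from 33.9 to 477.8 in brain.

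As tested, circular share and circle use within hosts gave no call of a member over age. For circular share 0 of 222 members passed in any comparison of ages in brain (edgeR; 14, 13 and 16 unadjusted; 0% of all circRNAs in each) and 0 of 87 in muscle (16, 2 and 9 unadjusted; 0.342, 0 and 0% of all circRNAs). For use of the leading circle 0 of 84 member hosts passed in brain (1, 2 and 3 unadjusted) and 0 of 27 in muscle (1, 0 and 0 unadjusted), as did 0% of all hosts tested. Some alternatives gave calls in muscle at 8.5 against 3.5 weeks: a replicate block gave 3 in circular share and a minimum of 30 reads 6. Leaving out single libraries also gave some in share and in use. These alternatives were counted over members and their hosts only, so no share over all features stands beside them. Nor did any member or host pass when brain and muscle were compared in their change from 3.5 to 14 weeks (edgeR interaction; 9 circles unadjusted for abundance, 6 for share and 1 host for use; 0% of all features). A usable standard error was had for 120 of 309 members in abundance, 115 of 309 in share and 28 of 125 hosts in use. None of the others passed, and the test does not judge them. Host counts at each age were low, and a p above the threshold does not show that use was constant.

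As a description, the leader was compared over ages in hosts with 5 or more reads at each age. The same circle led at all 3 ages in 68 of 118 brain hosts, in a further 13 a tie at some age left a common leader, and in 37 the leader differed. In muscle the leader was the same in 21 of 35 hosts and differed in 14. The hosts with the smallest p for use in brain at 14 against 3.5 weeks were LOC107394260 and rims2. In LOC107394260 (chromosome 8, plus strand), 2 circles share the start 53985068. The shorter, ending at 53985535, had 2, 1 and 4, then 4, 1 and 3, then 0, 3 and 0 reads, and the longer, ending at 53988476, had 0 reads at 3.5 and 8.5 weeks and 0, 6 and 4 at 14 weeks (log2 -6.49, SE 3.01, unadjusted p = 0.0316, adjusted p = 0.811, edgeR). The reads of the longer circle came from 2 of the 3 oldest libraries. In rims2, an active zone gene, 4 circles share the start 29784353 on chromosome 3. The leader rims2.2 had 0 reads at 3.5 weeks, 4, 1 and 0 at 8.5 weeks and 4, 0 and 3 at 14 weeks, beside 9 reads of rims2.3, whose end differs by 3 bp (log2 6.27, SE 2.95, adjusted p = 0.811, edgeR).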

How the data were processed

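Per the labels, brain and muscle libraries were stranded, paired-end and ribosome-depleted. The authors deposited raw counts of circular and of linear reads for 1810 circRNAs and 15 libraries; the columns are named for chimeric junction output, per the file headers, and STAR 2.5.2b is named in the submitters' processing notes. The circle caller, genome build, annotation and linear read definition were not given in the sources used here, so coordinates are the files' own and no sequence was used. A second set of tables holds the authors' p-values (bbTest, per the file headers). The deposited tables held 0 columns of other samples.

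Hosts were named as in the file (144), from RefSeq names of assembly NfurGRZ-RIMD1 (73) or by identifier (50); roles given are those known in mammals. Members, gene lists and tests were chosen with earlier results of these data known. Named were hosts with the most circles or reads, hosts and circles past a threshold (up to 10 per direction) or with the smallest p, and list members.

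Computed from the counts with R 4.3.3, edgeR 4.0.16 and DESeq2 1.42.0: quasi-likelihood tests with Benjamini-Hochberg adjustment at 0.05 over every circRNA whose circular reads summed to 10 or more in a fit, library sizes and TMM factors from linear counts, 3 ages sharing 1 fit per tissue and all 15 libraries 1 fit for tissues (mean difference over ages, brain minus muscle). Circular share was tested as circular against linear columns, and circle use as the leading circle against the other circles of a host with 10 or more reads in each, both with the library as a block. Values over hosts were tested by two-sided exact permutation over libraries (Python 3.11.15), adjusted over 9 tests. Intervals are exact binomial (Clopper-Pearson) at 95%, and 0 reads allow up to 3; both cover counting error only. Depth was 1343 to 4400 circular reads per library. Each SE is the log2 difference divided by the square root of the F statistic of its test. Scripts were tested on simulated data. Alternatives covered scaling, filters, DESeq2, a replicate block and leaving out each library. Tissue and age as additive terms, added after seeing the data, were tried because the mean difference over ages has no usable standard error (counted as over 10 on the log2 scale) where a tissue has too few reads at some age. No replicate libraries were identical or agreed within sampling noise. Scatter was largest in muscle at 3.5 and 8.5 weeks, with a chi-square per degree of freedom of 5.32 and 3.49. It was 2.20 in muscle at 14 weeks and 1.73 to 2.64 in brain pairs.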

Additional observations from a re-analysis of the deposited data

How the results depend on the processing

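The circles and hosts called in the main fits were followed through the alternatives, except where a filter removed them or no adjusted p was given. Of these values, 1693 kept direction and side of the threshold, 218 were no longer past it and 4 reversed. The reversed ones were brain against muscle: nup50.2 at 0.036 with TMM factors from the circular counts, rmc1.1 at 0.33 and jmjd1c.2 at 0.15 without muscle replicate 3 at 3.5 weeks, and med17.2 at 0.14 without muscle replicate 3 at 8.5 weeks (log2). After the first of these removals the remaining 3.5-week muscle library had 0 reads of rmc1.1 and jmjd1c.2. Over the left-out libraries these ranged from -2.05 to 0.33 (rmc1.1), -3.07 to 0.15 (jmjd1c.2) and -2.23 to 0.14 (med17.2). For the other reversals the cause was not tested. Among counts and overall values, 354 were the same, 32 moved, 5 reversed in sign and 1 was no longer past the threshold. The members called between tissues were 154 with circular TMM and 142 with linear totals (68 as reported). Of all 896 circRNAs tested, 420, 387 and 207 passed in the same order. With tissue and age as additive terms, chosen after seeing the data, 112 passed in abundance and 25 in circular share between tissues, where fits without a usable standard error fell from 59 to 0 and from 147 to 42 of 309. DESeq2 called 9 in muscle at 8.5 against 3.5 weeks. Calls with DESeq2, with other filters, with a replicate block and with single libraries left out were counted over members and their hosts only. No share over all features stands beside those counts. A minimum of 30 circular reads gave 6 calls of circular share in muscle at 8.5 against 3.5 weeks and 2 at 14 against 3.5 weeks. At 20 reads per tissue the leading circle was shared in 80.8% of hosts. Over the 145 hosts with 2 or more reads in at least 1 library of each tissue, the same-circle difference was -7.33 points (exact permutation test, adjusted p = 0.0521).

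Leaving out each library in turn gave 0 to 1 calls of abundance in brain at 8.5 against 3.5 weeks, 0 to 12 in muscle at 8.5 against 3.5 weeks, 0 to 2 at 14 against 3.5 weeks and 40 to 68 between tissues. Calls of circular share ranged from 0 to 3 in muscle at 8.5 against 3.5 weeks and from 5 to 14 between tissues. Calls of circle use ranged from 0 to 5 and 0 to 3 in muscle (8.5 and 14 against 3.5 weeks) and from 1 to 2 between tissues. The brain slope of the members' share of reads ranged from -0.0590 to 0.147 points per week, with -0.0112 without replicate 2 at 3.5 weeks and -0.0590 without replicate 2 at 14 weeks. That of the same-circle probability ranged from -0.188 to 0.100, with 0.0791 and 0.0722 without replicates 2 and 3 at 3.5 weeks and 0.100 without replicate 1 at 14 weeks.

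Replicate numbers were not treated as pairs. Same-numbered libraries of different ages within a tissue had correlations of their deviations of -0.205 to 0.0599 in brain and 0.00432 to 0.246 in muscle. In muscle, deviations of the 2 libraries of an age mirror each other, so these values are not all separate. Brain and muscle libraries of the same number were not compared, so pairing between tissues was not tested. With a replicate block, 4 members passed in abundance and 3 in circular share in muscle at 8.5 against 3.5 weeks, 1 in abundance at 14 against 3.5 weeks, and 58 and 11 between tissues; every other age comparison gave 0, and circle use between tissues gave 2. These replicate block counts cover members and their hosts only, without a share over all features. Depth limits the rest: a detected circle had a median of 10 reads over all libraries.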

Other observations

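Some member hosts had strong circles that are not members because an end lies outside annotated exons. In flnc, which encodes the muscle filamin, flnc.2 (chromosome 2, 1030947 to 1031338) had 147 and 221 reads at 3.5 weeks, 352 and 272 at 8.5 weeks and 141 and 186 at 14 weeks in muscle, and 7 to 35 reads in brain. Its 1319 muscle reads exceed those of any member. In nup50, a nuclear pore gene, nup50.1 had 161 reads in brain and 33 in muscle, more than the member nup50.2 with 42 and 30. In syn3, a synapsin gene, the non-exonic syn3.2 had 17 reads in brain and 14 in muscle, and the member syn3.1, which starts at the same coordinate (27128700 on chromosome 2), had 15 and 0.

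The authors' deposited table of p-values, which are not labelled as adjusted, listed 81 and 93 members in brain at 8.5 against 3.5 and at 14 against 8.5 weeks, of which 9 and 5 had a p under 0.05. For all circRNAs, the authors' deposited table gives 37 of 251 and 18 of 296. In muscle the authors' deposited table has 21 of 64 and 7 of 84 members under 0.05, and 58 of 236 and 18 of 253 over all circRNAs. The smallest p of a member in the authors' deposited table was 0.0001098, that of cap2.2 (muscle, 8.5 against 3.5 weeks). In brain it was 0.001425 for LOC107390307.1 at 8.5 against 3.5 weeks, per the authors' deposited table.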
